A study of Mus musculus with 12 samples.

Results

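The imprinted growth regulators examined here were Igf2, Peg3, Mest, Plagl1, Cdkn1c, Phlda2, Ascl2, Kcnq1, Igf2r and Grb10, 10 genes chosen by name and matched by gene symbol. All 10 were found among the 17885 genes of the table of control and Eed iKO hair follicle stem cells (HFSCs) and among the 21915 genes of the table of anagen and telogen HFSCs. HFSCs are the CD34+ cells of the hair follicle bulge that rest in telogen and divide in anagen, the growth phase of the hair cycle. The cells were sorted from mouse back skin by high α6-integrin, CD34 and EpCAM on the surface and absence of Sca1, and their RNA was sequenced in 12 libraries, 3 in each of 4 groups.

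All mice were C57BL/6J, and both sexes were used in the study. The Eed iKO mice carried K15-CrePGR, a Cre that acts in the bulge once RU-486 is given, and Eed fl/fl, and their skin received RU-486 at 10 mg per ml on 7 days from postnatal day 50 (P50). The control mice, labelled wildtype, received the ethanol vehicle, and both groups were taken at P70. The effects of Eed loss, Cre and RU-486 therefore cannot be told apart. The anagen mice (P28 to P30) and the telogen mice (P50 to P52) were wildtype, so that hair cycle phase and age cannot be told apart either. EED is a core subunit of Polycomb repressive complex 2 (PRC2), which places the repressive mark H3K27me3 on chromatin.

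An imprinted gene is transcribed mainly from the allele of one parent, because DNA methylation set in the germ line, and at some genes also Polycomb marks, keep the other allele silent. Many imprinted genes set growth: paternally expressed Igf2 encodes a growth factor, and maternally expressed Igf2r encodes the receptor that clears it, while Grb10 and Cdkn1c hold back insulin signalling and the cell cycle. Igf2, Ascl2, Kcnq1, Cdkn1c and Phlda2 lie within one imprinted region at the distal end of chromosome 7, in which Polycomb marks are known to add to silencing in the embryo and placenta. The values below are totals per gene, so the 2 alleles were not separated.

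The coordinates are those of the GENCODE annotation of GRCm38. On chromosome 7, Igf2 lies on the minus strand at chr7:142650766-142666816, Ascl2 on the minus strand at chr7:142966829-142969264, Kcnq1 on the plus strand at chr7:143106362-143427042, Cdkn1c on the minus strand at chr7:143458339-143461050 and Phlda2 on the minus strand at chr7:143501545-143503150. Peg3 lies far from them on the same chromosome, on the minus strand at chr7:6703892-6730431. The remaining genes are Mest at chr6:30723547-30748465 on the plus strand, Plagl1 at chr10:13060504-13131694 on the plus strand, Grb10 at chr11:11930508-12038683 on the minus strand and Igf2r at chr17:12682406-12769664 on the minus strand.

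PRC2 is known to bind promoters rich in CG dinucleotides, and CG dinucleotides are also what DNA methylation marks at imprinted genes. The sequences just upstream of RefSeq start sites (GRCm38.p6) are therefore shown for 4 genes whose libraries did not overlap between groups in at least 1 comparison. Each is printed 5′ to 3′ on the strand of its gene, without annotated exon bases, and capitals mark CG, which reads the same on both strands. Of the 10 genes, 8 were matched to a RefSeq start, and Cdkn1c and Kcnq1 were not.
Igf2, chr7:142657497-142657746, minus strand: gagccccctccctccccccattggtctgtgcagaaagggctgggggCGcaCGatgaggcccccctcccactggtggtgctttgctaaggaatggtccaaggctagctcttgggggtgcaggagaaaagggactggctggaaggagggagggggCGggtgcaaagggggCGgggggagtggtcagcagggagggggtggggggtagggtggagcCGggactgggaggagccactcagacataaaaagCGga
Peg3, chr7:6730432-6730577, minus strand: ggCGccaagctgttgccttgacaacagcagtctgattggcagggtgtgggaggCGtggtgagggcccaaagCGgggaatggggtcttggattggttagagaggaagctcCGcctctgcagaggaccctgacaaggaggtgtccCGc
Plagl1, chr10:13090582-13090690, plus strand: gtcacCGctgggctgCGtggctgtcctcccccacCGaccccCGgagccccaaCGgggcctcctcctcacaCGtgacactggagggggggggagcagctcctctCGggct
Grb10, chr11:12037421-12037670, minus strand: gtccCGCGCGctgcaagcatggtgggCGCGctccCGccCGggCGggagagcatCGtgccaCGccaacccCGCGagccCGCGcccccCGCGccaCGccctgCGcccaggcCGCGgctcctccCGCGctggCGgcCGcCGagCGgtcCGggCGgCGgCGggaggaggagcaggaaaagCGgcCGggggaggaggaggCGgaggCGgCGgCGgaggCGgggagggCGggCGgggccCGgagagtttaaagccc
Over the full 250 bases upstream of these starts there were 6 CG at Igf2, 8 at Peg3, 19 at Plagl1 and 40 at Grb10. Among 32851 such windows of the mouse genome the median was 6 CG, and as many or more were found in 50.4% of windows for the Igf2 count, 43.0% for Peg3, 19.7% for Plagl1 and 1.31% for Grb10. Igf2 had 3 further RefSeq windows, with 1, 10 and 22 CG, the last of them wholly covered by exons. Grb10 had 1 further window, at chr11:12027972-12028221, with 8 CG.

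Values are normalised read counts, that is read counts divided by a size factor of the library. The 2 tables were normalized separately and are not compared with each other. In the table of control and Eed iKO cells whole reads could be recovered, and the libraries held between 33269600 and 57063600 reads on protein-coding genes. These reads are counts that Kallisto, the alignment program of the study, assigned to each gene. For the hair cycle libraries the number of reads could not be recovered and the depth is unknown. Groups were compared with limma on log2(value + 1) over 15008 and 13457 genes that passed a filter on low values, with Benjamini-Hochberg adjustment over all of them and a threshold of 0.05. Fold changes are on this log2 scale, coded Eed iKO minus control and anagen minus telogen, with the standard error (SE). The study describes the control and Eed iKO libraries as biological replicates from independent litters and the hair cycle cells as taken from several animals, but the labels tie no animal or litter to a library, so a shared litter could not be accounted for in the tests.

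Transcripts of the targeted gene Eed overlapped between control libraries and those labelled Eed iKO. Its normalised read count was 1084, 1249 and 950 in control 1 to 3 and 933, 1361 and 1001 in Eed iKO 1 to 3, a log2 fold change of -0.0055 ± 0.216 (SE, n = 3 and 3). These are counts over the whole gene, and the deleted exons were not looked at on their own. The study itself reported lower Eed mRNA by RT-qPCR in sorted Eed iKO HFSCs. It also reported a significant loss of H3K27me3 staining in these cells at P70. HFSC markers such as Krt15, Krt5 and Cd34 were all detected, 10 of 10 passing the filter in each table, and their summed level was lowest by far in telogen 1, at 236501 against 551501 to 663758 in the anagen libraries. Markers of proliferation rose from telogen to anagen, with 6 of 6 called, against 7.22% of all genes called in that direction. Their summed level was 2042 to 3421 in telogen and 21239 to 33914 in anagen libraries. In the other table this sum was 5919 to 7525 in control and 6700 to 15531 in Eed iKO libraries. There limma called 0 of 6 (0.0267% of all genes), with 1 of 6 at an unadjusted p under 0.05 (14.7% of all genes). Markers of fibroblasts and dermal papilla summed to 2715 to 4048 in control, 2227 to 2593 in Eed iKO, 457 to 692 in telogen and 550 to 688 in anagen libraries. Single markers among them moved in opposite directions. In Eed iKO against control limma called 0 of 5 tested. At an unadjusted p under 0.05 there were 3 of 5 (14.7% of all genes), Col1a1 and Thy1 lower and Crabp1 higher. In anagen against telogen limma called 1 of 5, Col1a1, as higher (7.22% of all genes). At an unadjusted p under 0.05 there were 2 of 5 (27.3% of all genes), and the other, Col1a2, was lower. Endothelial markers summed to at most 667 in any library of the first table and to at most 146 in any library of the second. Single markers of immune and pigment cells differed between libraries. Cd207, a Langerhans cell marker, was listed at 0 in all 3 control libraries and stood at 18.3, 13.3 and 23.7 in Eed iKO 1 to 3, and the macrophage gene Lyz2 was listed at 0 in all control libraries and in Eed iKO 3 but stood at 55.9 and 65.1 in Eed iKO 1 and 2. Tyrp1, a melanocyte enzyme, stood at 0, 6.50 and 0 in control and at 17.2, 25.2 and 16.8 in Eed iKO libraries. The immune markers as a list summed to 199 to 412 in control and 237 to 682 in Eed iKO libraries. The melanocyte markers, mostly Mitf, summed to 7819 to 9122 and 7887 to 8829. Of each list limma called 0 of 5 tested (0.0267% of all genes). At an unadjusted p under 0.05 there was 1 of 5 in each, Cd207 and Tyrp1 (14.7% of all genes). Both passed the filter through their Eed iKO values. In the hair cycle table limma called 2 of 5 melanocyte markers, Dct higher in anagen and Mitf lower (7.22% and 4.35% of all genes). Dct stood at 61.2, 134 and 94.0 in telogen 1 to 3 and at 709, 531 and 387 in anagen 1 to 3. The sum of the melanocyte markers was 2882 to 3285 in telogen and 1410 to 1488 in anagen libraries. Immune markers there summed to 119 to 363 in telogen and 86.4 to 127 in anagen libraries, with 0 of 5 called (11.6% of all genes). The highest sum was that of telogen 2, in which H2-Aa stood at 260 against 6.62 and 24.9 in telogen 1 and 3. The part of these cells in the results below was not tested. Cdh5 of the endothelial and Sox2 of the dermal papilla markers were listed at 0 in all 6 hair cycle libraries. Other markers of these lists were detected there, with Pecam1 at 54.9 to 122 and Crabp1 at 7.79 to 82.6, while Emcn and Lum stayed at or below 1.79. Col3a1, not tested, was at or below 0.42 in telogen and at 48.5, 6.75 and 20.2 in anagen 1 to 3. In these bulk samples, fewer cells of a type and less RNA per cell cannot be told apart.

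Within control HFSCs, Peg3 was the most abundant of the 10 genes and Kcnq1 the least, when the normalised read count is divided by the length of the longest coding transcript in kb. Peg3, a zinc finger protein, stood at 785 ± 54.7 per kb (SD, n = 3) and Igf2r at 628 ± 76.3 per kb. Cdkn1c followed at 270 ± 79.6 per kb. Below it came a middle group of Grb10, Mest, Phlda2, Ascl2 and Plagl1, between 104 and 62.0 per kb, in which neighbours in the order overlapped in their libraries. Igf2, at 4.56 ± 3.11 per kb, and Kcnq1, at 3.06 ± 5.10 per kb, lay at the bottom and also overlapped. Igf2r, the receptor, was thus far above Igf2, its ligand, in every library.

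In telogen cells Peg3 led again, at 340 ± 70.7 per kb, ahead of Igf2r at 157 ± 74.7 per kb, with no overlap between the libraries of the 2 genes. All other neighbours in the telogen order overlapped, down to Igf2 at 4.74 ± 7.47, Phlda2 at 3.86 ± 6.69, Ascl2 at 2.59 ± 1.51 and Kcnq1 at 1.23 ± 1.88 per kb. In anagen cells Peg3 stood at 507 ± 58.6 per kb and Igf2r at 151 ± 52.5 per kb, with Plagl1 next at 54.2 ± 19.7 per kb. Cdkn1c, next after Igf2r in telogen at 87.7 ± 67.3 per kb, came after Plagl1, Mest and Grb10 in anagen at 14.6 ± 12.3 per kb.

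The comparison of Eed iKO with control HFSCs asked which genes respond when PRC2 is targeted in resting stem cells. Of the 10 genes, 9 passed the filter and 0 of these 9 changed by limma at an adjusted p under 0.05, where the background was 4 of 15008 genes (0.0267%). At an unadjusted p under 0.05 there were 2 of 9, Igf2 and Peg3, against 14.7% of all genes. With the thresholds in the methods of the study, a log2 fold change beyond 1.5 either way and an unadjusted p under 0.05, there was 1 of 9, Igf2, against 1.75% of all genes. For 3 of 9 genes, Igf2, Peg3 and Plagl1, the control and Eed iKO libraries were fully separated, against 20.2% of all genes tested. On the recovered reads, edgeR called 0 of 9 (0.0333% of all genes) and DESeq2 1 of 9, Igf2 (4.48% of all genes). The median log2 fold change of the 9 genes was 0.20, beside -0.0011 over all genes tested.

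**Figure D1:**
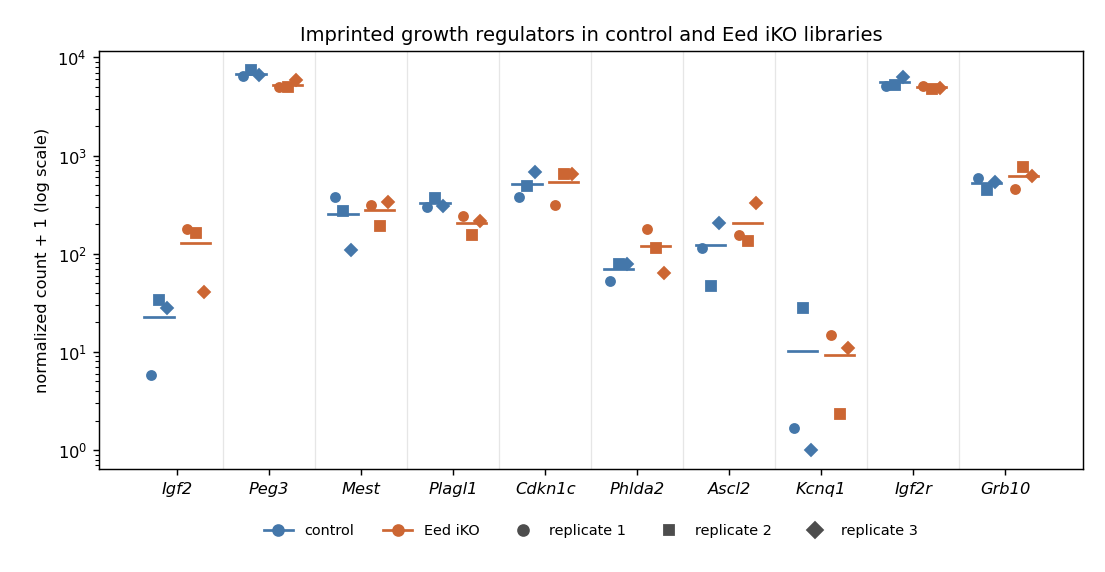
Normalised read count + 1 (log axis) of each imprinted growth regulator in the 3 control (blue) and 3 Eed iKO (orange) libraries, with a symbol for each replicate number and a bar at the group mean. Igf2 lay between 4.86 and 32.5 in control and between 39.5 and 178 in Eed iKO libraries, whereas most other genes overlapped between the groups.

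Igf2, the fetal growth factor, gave the largest fold change of the 9 genes. Its normalised read count was 4.86, 32.5 and 27.2 in control 1 to 3 and 178, 163 and 39.5 in Eed iKO 1 to 3. All Eed iKO libraries were above all control libraries, but Eed iKO 3 exceeded control 2 by little. The log2 fold change was 2.59 ± 0.862, with a 95% confidence interval of 0.68 to 4.49, and the limma adjusted p was 0.205. These values rested on 7, 30 and 30 reads in the control libraries and 166, 123 and 40 reads in the Eed iKO libraries. Kallisto assigned these reads to the gene, and error in that assignment is not part of the interval below. The 95% exact Poisson interval, which covers counting error only, reached from 28.3 to 53.8 normalised read counts in Eed iKO 3 and from 21.9 to 46.4 in control 2, so that this pair was not separated at this depth. By DESeq2 on the recovered reads the adjusted p was 0.0396, and by edgeR it was 0.206. Exons of Igf2 share 64.5% of their bases with Gm49394, a gene model on the same strand, and with the antisense gene Igf2os, so that reads of these genes could be split or joined.

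The 2 libraries with the highest Igf2 also had the highest values of most proliferation markers listed. Cdk1, a kinase that drives mitosis, stood at 27.8, 41.2 and 49.0 in control 1 to 3 and at 276, 158 and 57.3 in Eed iKO 1 to 3. Mki67, which marks cycling cells, stood at 639, 2543 and 928 in control and at 6125, 6301 and 609 in Eed iKO libraries. Eed iKO 1 and 2 were thus high in both and Eed iKO 3 was not. Top2a, Ccnb1 and Bub1b also had their 2 highest values in Eed iKO 1 and 2. Pcna did not, at 4503, 3736 and 5740 in control 1 to 3 and 4573, 5633 and 5634 in Eed iKO 1 to 3. The macrophage gene Lyz2, which did not pass the filter, had reads in Eed iKO 1 and 2 alone among these 6 libraries. Tyrobp, which did not pass either, was at 0 in all control libraries and at 15.1, 2.66 and 2.97 in Eed iKO 1 to 3. Fcer1g, also not tested, stood at 0, 0 and 3.63 in control and at 11.8, 2.66 and 7.91 in Eed iKO libraries. Ptprc, Cd74 and H2-Aa were likewise highest in Eed iKO 1, but H2-Aa was lower in Eed iKO 2 (34.5) than in any control library. Cd207 and Cd3e were highest in Eed iKO 3. The part of dividing cells or of macrophages in the Igf2 values was not tested. In the hair cycle libraries Cdk1 was 15.6, 10.4 and 10.9 in telogen 1 to 3, where Igf2 was 0.54, 63.1 and 3.53. In anagen 1 to 3 Cdk1 was 719, 788 and 259, and Igf2 was 32.6, 16.2 and 23.2. The part of dividing cells was not tested there either. Without Eed iKO 3 the log2 fold change of Igf2 was 3.28 (limma adjusted p = 0.0957), and without control 1 it was 1.79 (limma adjusted p = 0.318).

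**Figure D2:**
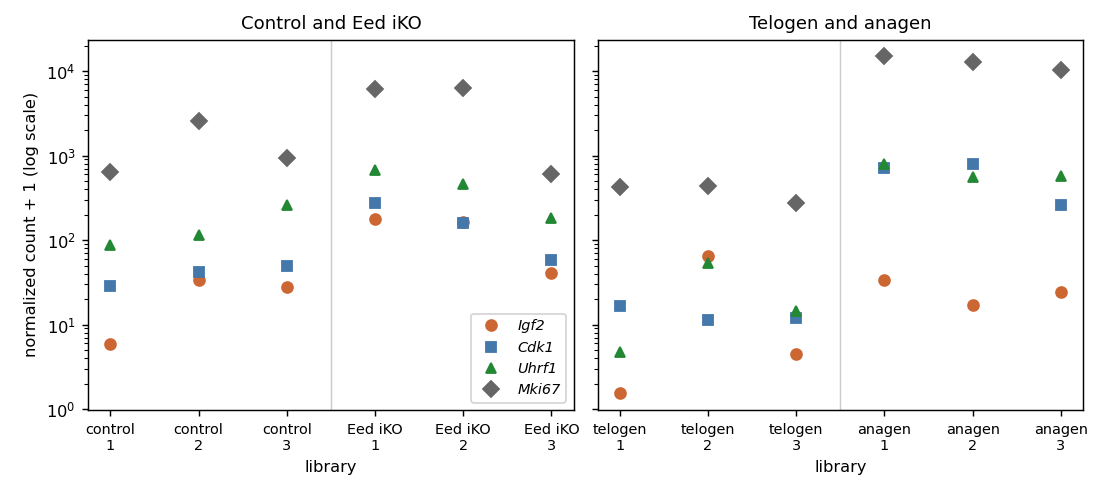
Normalised read count + 1 (log axis) of Igf2, Cdk1, Uhrf1 and Mki67 in each library of the 2 tables. Igf2 was highest in Eed iKO 1 and 2 (178 and 163), which also had the highest Mki67 of that table. In the other table Mki67 was high in all anagen libraries. Igf2 there was highest in telogen 2 (63.1), then in anagen (16.2 to 32.6), and lowest in telogen 1 and 3 (0.54 and 3.53).

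Peg3 and Plagl1, paternally expressed like Igf2, lay on the opposite side. The normalised read count of Peg3 was 6440, 7358 and 6682 in control 1 to 3 and 4945, 5019 and 5853 in Eed iKO 1 to 3. Every Eed iKO library was below every control library. The log2 fold change was -0.37 ± 0.136, with a 95% confidence interval of -0.68 to -0.074 and a limma adjusted p of 0.236. Plagl1, a zinc finger transcription factor that restrains growth in cultured cells, stood at 299, 370 and 308 in control 1 to 3 and at 240, 155 and 214 in Eed iKO 1 to 3. Its groups did not overlap either, and its log2 fold change was -0.70 ± 0.335 (limma adjusted p = 0.364).

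Mest, the fourth paternally expressed gene, encodes a protein of the hydrolase family and overlaps Copg2, which lies on the other strand and covers 23.1% of its exon bases. It stood at 381, 270 and 108 in control 1 to 3 and at 313, 189 and 335 in Eed iKO 1 to 3. The groups overlapped across most of their range, with a log2 fold change of 0.28 ± 0.483. The 4 paternally expressed genes therefore did not share a direction, 2 of them being positive and 2 negative, with a median of -0.049.

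None of the maternally expressed genes was separated between control and Eed iKO. Cdkn1c encodes p57, an inhibitor of cyclin-dependent kinases, and stood at 376, 487 and 676 in control 1 to 3 and at 311, 643 and 651 in Eed iKO 1 to 3. Its log2 fold change was 0.023 ± 0.353, with a 95% confidence interval of -0.76 to 0.80. The control and Eed iKO values covered almost the same range, and 30.7% of the exon bases of Cdkn1c are also covered by Gm44732 on the other strand. The other CIP/KIP inhibitors, Cdkn1a and Cdkn1b, gave log2 fold changes of -0.0086 and 0.060, with 0 of 2 called.

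Phlda2, which limits placental growth, stood at 52.0, 78.0 and 77.1 in control 1 to 3 and at 178, 114 and 63.3 in Eed iKO 1 to 3. As for Igf2, the 2 highest values were in Eed iKO 1 and 2, but Eed iKO 3 lay inside the control range (log2 fold change 0.67 ± 0.538). Ascl2, a basic helix-loop-helix transcription factor of trophoblast and intestinal stem cells, stood at 112, 45.5 and 204 in control and at 156, 134 and 324 in Eed iKO libraries. The groups overlapped, with a log2 fold change of 0.89 ± 0.594 (limma adjusted p = 0.513). Both libraries with replicate number 3 were the highest of their group for Ascl2.

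Igf2r was among the most precisely measured of these genes. It stood at 5129, 5245 and 6357 in control 1 to 3 and at 5130, 4749 and 4930 in Eed iKO 1 to 3. The groups touched at the lowest control value, and the log2 fold change was -0.17 ± 0.139, with a 95% confidence interval of -0.48 to 0.14. Grb10, an adaptor that restrains the insulin and IGF receptors, stood at 591, 448 and 540 in control and at 458, 769 and 612 in Eed iKO libraries. Its groups overlapped, with a log2 fold change of 0.20 ± 0.272 and a 95% confidence interval of -0.40 to 0.80.

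Kcnq1, a potassium channel gene whose intron holds the start of the imprinted antisense RNA Kcnq1ot1, did not pass the filter in either table. It had 1, 25 and 0 reads in control 1 to 3 and 13, 1 and 10 reads in Eed iKO 1 to 3. The count of 0 in control 3 allows up to 2.72 normalised read counts (taken as 3 reads), for counting error only. Its exons share 2.96% of their bases with Kcnq1ot1. Values scattered within both groups, so no direction is given.

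The comparison of anagen with telogen HFSCs asked which genes differ between dividing and resting stem cells. Here 7 of the 10 genes passed the filter, and Phlda2, Ascl2 and Kcnq1 did not. Of the 7, 0 changed by limma at an adjusted p under 0.05, where the background was 1556 of 13457 genes (11.6%). At an unadjusted p under 0.05 there were 3 of 7, Cdkn1c, Plagl1 and Peg3, against 27.3% of all genes. With the thresholds of the study, here a log2 fold change beyond 2 either way, there was 1 of 7, Cdkn1c, against 5.1% of all genes. For 4 of 7 genes, Cdkn1c, Peg3, Plagl1 and Grb10, the telogen and anagen libraries were fully separated, against 33.3% of all genes. The median log2 fold change of the 7 genes was 0.23, beside 0.013 over all genes tested.

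**Figure D3:**
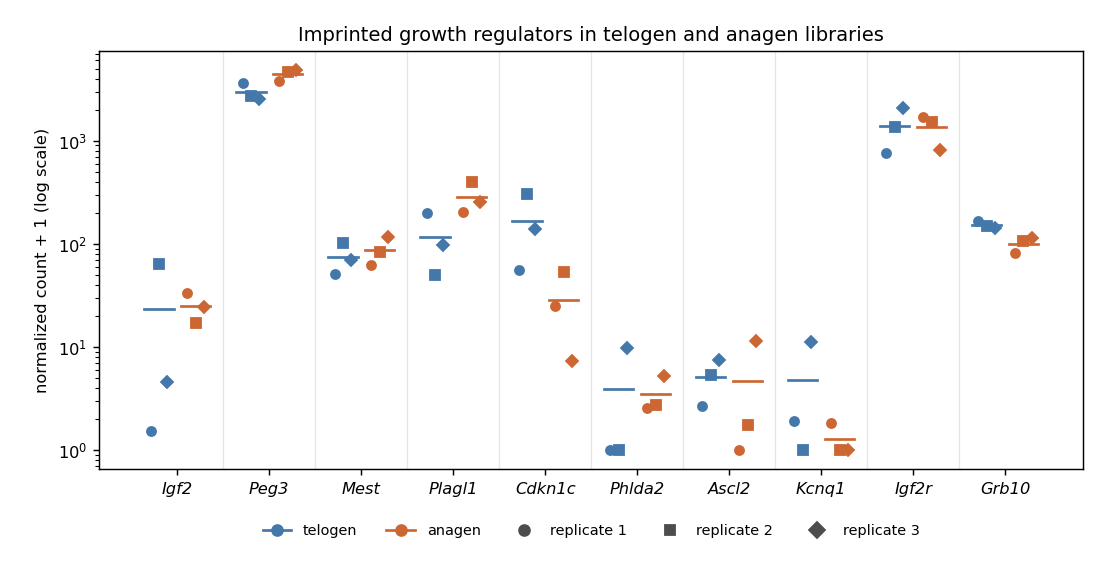
Normalised read count + 1 (log axis) of each imprinted growth regulator in the 3 telogen (blue) and 3 anagen (orange) libraries, with a symbol for each replicate number and a bar at the group mean. Cdkn1c spanned 55.3 to 306 in telogen and 6.23 to 52.6 in anagen libraries, and Phlda2, Ascl2 and Kcnq1 stayed at or below 10.3 in all 6 libraries.

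Cdkn1c gave the largest fold difference of the 7 genes, with lower values in the anagen libraries, and narrowly missed the threshold. Its normalised read count was 55.3, 306 and 138 in telogen 1 to 3 and 24.2, 52.6 and 6.23 in anagen 1 to 3. The highest anagen library lay just under the lowest telogen library. The log2 fold change was -2.65 ± 0.789, with a 95% confidence interval of -4.38 to -0.92 and a limma adjusted p of 0.0528. Cdkn1a and Cdkn1b, the other CIP/KIP inhibitors, gave log2 fold changes of 0.19 and 0.50 (limma adjusted p = 0.804 and 0.133).

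Peg3 and Plagl1 had higher values in all anagen than in all telogen libraries, without passing the test. Peg3 stood at 3661, 2701 and 2516 in telogen 1 to 3 and at 3833, 4596 and 4800 in anagen 1 to 3. Anagen 1 and telogen 1 were close, and the log2 fold change was 0.59 ± 0.1996 (limma adjusted p = 0.083). Plagl1 stood at 200.2, 48.4 and 97.4 in telogen and at 200.6, 401 and 254 in anagen libraries. Telogen 1 and anagen 1 were almost equal, and the log2 fold change was 1.47 ± 0.497 (limma adjusted p = 0.0823).

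These 3 results moved with telogen 1, the library with the lowest summed HFSC markers. That sum is mostly keratins, and Krt15 was 142406 in telogen 1, against 416765 and 350444 in telogen 2 and 3. Cd34 (6433 against 9159 and 8295) and Itga6 (4177 against 6580 and 6856) also had their lowest telogen values there. The same held for Krt5, Krt14, Lgr5 and Sox9. Lhx2 (11217 against 7877 and 7593) and Epcam (1864 against 1570 and 791) had their highest telogen values there, and Nfatc1 lay in between. Without telogen 1, limma called 3 of 7 genes (11.4% of all genes), with a log2 fold change of -3.28 for Cdkn1c (adjusted p = 0.0241), 0.75 for Peg3 (adjusted p = 0.0192) and 1.98 for Plagl1 (adjusted p = 0.0163). Without anagen 2, 1 of 7 was called (5.29% of all genes), Cdkn1c (limma adjusted p = 0.0424), and without telogen 2, 1 of 7 was called (11.3% of all genes), Igf2.

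Igf2 in the hair cycle varied most among the telogen libraries. It stood at 0.54, 63.1 and 3.53 in telogen 1 to 3 and at 32.6, 16.2 and 23.2 in anagen 1 to 3. The anagen libraries were alike, and telogen 2 alone was above all of them. The log2 fold change was 1.66 ± 1.16 (limma adjusted p = 0.389), and without telogen 2 it was 3.19 (limma adjusted p = 0.0406). Telogen 2 also held the highest Cdkn1c, Mest and H2-Aa and the lowest Plagl1 of the telogen libraries. Gm49394, which overlaps Igf2, was listed at 0 in all 6 libraries.

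Grb10, Mest and Igf2r gave smaller differences. Grb10 stood at 167, 146 and 140 in telogen 1 to 3 and at 80.4, 106 and 113 in anagen 1 to 3. Its groups did not overlap, with a log2 fold change of -0.61 ± 0.350 (limma adjusted p = 0.288). Mest stood at 50.3, 102 and 69.1 in telogen and at 60.9, 82.4 and 115 in anagen libraries, which overlapped, and its log2 fold change was 0.23 ± 0.452. Igf2r stood at 762, 1347 and 2088 in telogen and at 1693, 1521 and 813 in anagen libraries. Both of its groups spanned more than their difference, and the log2 fold change was -0.011 ± 0.368, with a 95% confidence interval of -0.82 to 0.80. By origin, 4 of 4 paternally expressed genes were positive and 0 of 3 maternally expressed genes were, with medians of 1.03 and -0.61. None of these genes was called, and Mest and Igf2r changed sign when single libraries were left out.

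Phlda2 stood between 0 and 8.77 in telogen and between 1.58 and 4.22 in anagen libraries. Ascl2 stood between 1.65 and 6.48 in telogen and between 0 and 10.3 in anagen libraries. Kcnq1 was listed at 0 in telogen 2, anagen 2 and anagen 3 and reached 10.3 in telogen 3. These 3 genes were too low for a direction to be given, and how many reads lay behind the values is unknown.

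**Figure D4:**
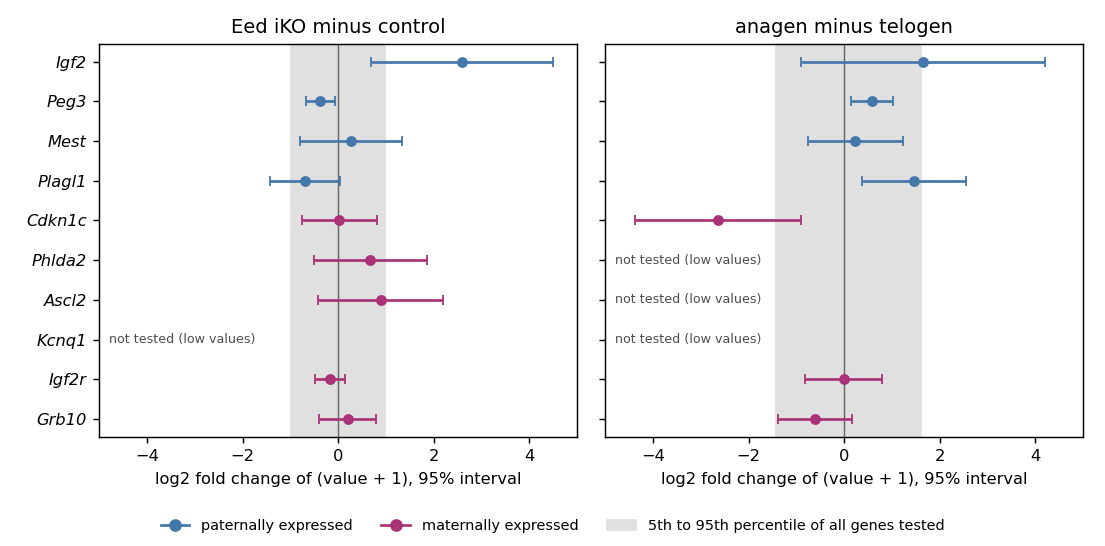
Log2 fold change of each imprinted growth regulator on the log2(value + 1) scale, with its 95% confidence interval, for Eed iKO minus control and anagen minus telogen. Blue marks paternally and purple maternally expressed genes, and the grey band spans the 5th to 95th percentile of all genes tested (-0.98 to 0.98 and -1.43 to 1.62). Igf2 in the first panel, and Igf2 and Cdkn1c in the second, lay outside the band.

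Across the distal chromosome 7 region, fold changes lay on both sides of 0. From Igf2 to Osbpl5, over 1106 kb, 13 of the 18 genes in the table of control and Eed iKO cells were tested, 8 of them with a positive fold change, and the median was 0.23. Limma called 0 of 13, and 4 of 13 had an unadjusted p under 0.05, namely Igf2, Tssc4 (0.92 ± 0.301), Cars (0.72 ± 0.269) and Cd81 (-0.31 ± 0.124), against 14.7% of all genes. Tssc4 and Cd81 are neighbours that lay on opposite sides of 0. Cdkn1c and Slc22a18, which follow each other on the chromosome, gave 0.023 and -0.044.

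In anagen against telogen 11 of 19 genes of the region were tested, 5 with a positive fold change, and 0 were called. Cdkn1c was the only one with an unadjusted p under 0.05, against 27.3% of all genes. Its neighbour Slc22a18 gave -0.65 ± 0.581 and Nap1l4, a histone chaperone gene further on, 0.14 ± 0.228.

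**Figure D5:**
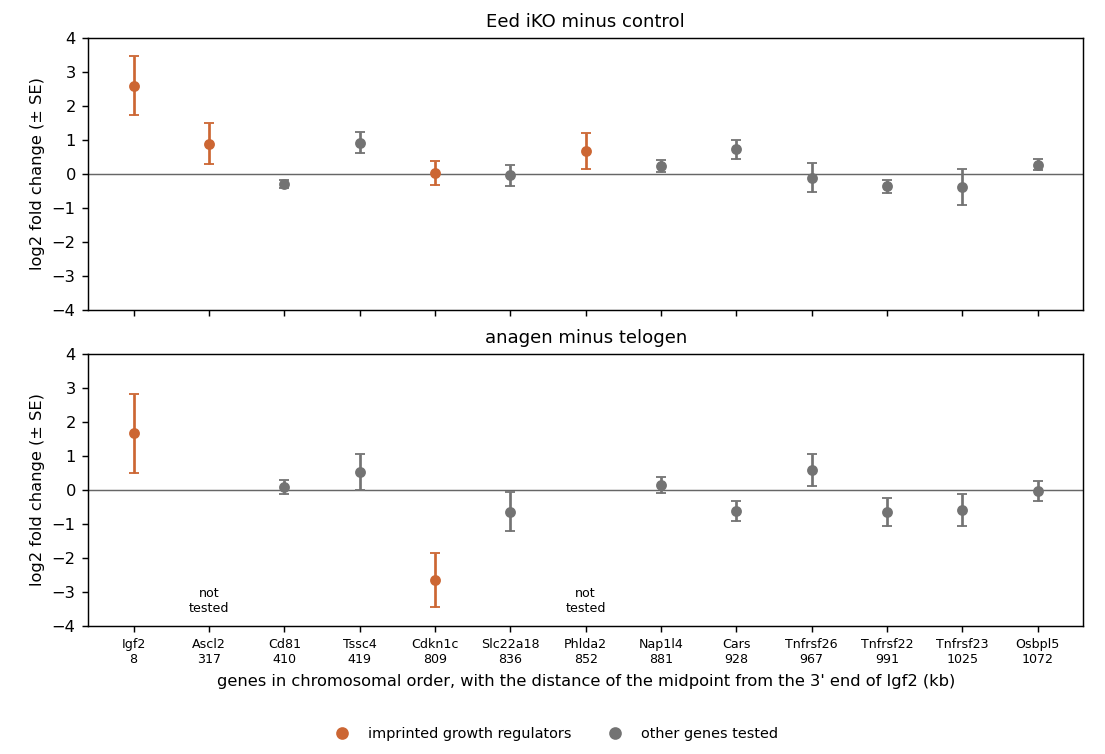
Log2 fold change (± SE) of the genes tested on distal chromosome 7, in chromosomal order, with the distance in kb of each gene's midpoint from the 3′ end of Igf2. Orange marks the imprinted growth regulators and grey their neighbours. Igf2 stood apart in Eed iKO minus control (2.59) and Cdkn1c in anagen minus telogen (-2.65), while their neighbours lay closer to 0.

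Other imprinted genes, including the unlisted neighbours of the region, were taken from a list of 51 genes. In Eed iKO against control 34 of them were tested and limma called 0, with 4 at an unadjusted p under 0.05 (14.7% of all genes). Rasgrf1, a paternally expressed activator of Ras, was the only one past the thresholds of the study. It stood at 260, 667 and 304 in control 1 to 3 and at 184, 49.1 and 175 in Eed iKO 1 to 3. All Eed iKO libraries were lower, with a log2 fold change of -1.68 ± 0.566 (limma adjusted p = 0.208). By edgeR 0 of the 34 were called (0.0333% of all genes). DESeq2 called 1, Rasgrf1 (adjusted p = 0.0491), against 4.48% of all genes.

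In anagen against telogen 32 of these genes were tested and limma called 2, both higher in anagen, against 7.22% of all genes called in that direction. Zdbf2, a paternally expressed gene with a zinc finger domain, stood at 19.8, 0 and 1.78 in telogen 1 to 3 and at 142, 72.7 and 28.4 in anagen 1 to 3. Each anagen library was above each telogen library (log2 fold change 4.13 ± 1.06, limma adjusted p = 0.0299). Dcn, which encodes the matrix proteoglycan decorin, imprinted in the placenta and made in skin mainly by fibroblasts, stood at 0, 0.64 and 1.47 in telogen and at 38.5, 27.2 and 15.7 in anagen libraries. Its log2 fold change was 4.05 ± 0.828 (limma adjusted p = 0.0106), and with a pseudocount of 0.1 in place of 1 it was 5.71. Of the fibroblast and dermal papilla markers, limma called 1 of 5 tested, Col1a1, as higher in anagen (7.22% of all genes). Col3a1 did not pass the filter and stood at 0, 0.42 and 0 in telogen and at 48.5, 6.75 and 20.2 in anagen libraries. Col1a2 was lower in all anagen than in all telogen libraries. The part of such cells in the Dcn values was not tested. Without anagen 1 or without anagen 2 neither gene was called. Dcn passed the filter on low values through its anagen libraries alone, and Zdbf2 mainly through them. A call as lower in anagen was therefore hardly possible for these genes, and their shared direction carries no weight. Without the filter the limma adjusted p was 0.0425 for Dcn and 0.232 for Zdbf2.

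The genes through which IGF2 and insulin act were followed as a list of 14, of which 13 and 12 were tested. In Eed iKO against control limma called 0 of 13, with 4 at an unadjusted p under 0.05 (14.7% of all genes), and the median log2 fold change was -0.18. In anagen against telogen limma called 3 of 12, 2 higher and 1 lower (7.22% and 4.35% of all genes), and the median was 0.097. Igfbp4 and Igfbp5, secreted proteins that bind IGFs, rose. Igfbp5 stood at 1656, 3666 and 3386 in telogen 1 to 3 and at 7394, 11206 and 11089 in anagen 1 to 3 (log2 fold change 1.83 ± 0.295, limma adjusted p = 0.0031). Igfbp4 stood at 1142, 1694 and 1616 in telogen and at 4550, 3688 and 5575 in anagen libraries (1.63 ± 0.224, limma adjusted p = 0.0012). For both binding proteins every anagen library was above the highest telogen library. Irs1, an adaptor that carries the signal of the insulin and IGF1 receptors into the cell, fell by 1.01 ± 0.246 on the log2 scale, from 585, 708 and 655 in telogen to 317, 385 and 271 in anagen libraries (limma adjusted p = 0.0241).

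The same 3 genes in the other table gave differences that limma did not call. Igfbp5 stood at 6605, 6661 and 6737 in control 1 to 3 and at 3233, 2667 and 3815 in Eed iKO 1 to 3. The control libraries were nearly equal and all Eed iKO libraries lay far below them, with a log2 fold change of -1.06 ± 0.156 (limma adjusted p = 0.0689). Irs1 gave -0.65 ± 0.148 (limma adjusted p = 0.107) and Igfbp4 0.46 ± 0.152 (limma adjusted p = 0.1997). DESeq2 on the recovered reads called Igfbp5 (adjusted p = 5.0e-06) and Irs1 (adjusted p = 0.0071).

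Factors that keep imprints through cell division were followed as a list of 9. In anagen against telogen 7 were tested and limma called 3, all higher in anagen, against 7.22% of all genes called in that direction. Uhrf1, which brings the maintenance methyltransferase to newly copied DNA, stood at 3.76, 52.8 and 13.4 in telogen 1 to 3 and at 798, 561 and 566 in anagen 1 to 3 (log2 fold change 5.36 ± 0.712, limma adjusted p = 9.6e-04). Dnmt1, that methyltransferase, rose by 1.11 ± 0.171 (limma adjusted p = 0.0025), and Dnmt3a, which sets new methylation, rose by 0.95 ± 0.233 (limma adjusted p = 0.0255). For each of the 3 genes all anagen libraries exceeded all telogen libraries. Markers of proliferation were high in the same libraries, as given above, and their part was not tested.

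In Eed iKO against control 8 of the 9 factors were tested and limma called 0 (0.0267% of all genes). All 8 fold changes were positive, from 0.0095 to 1.47, with a median of 0.29 beside -0.0011 over all genes tested. At an unadjusted p under 0.05 there was 1 of 8, against 14.7% of all genes. That gene was Uhrf1, at 86.7, 115 and 262 in control 1 to 3 and 670, 466 and 180 in Eed iKO 1 to 3. Eed iKO 3 lay inside the control range, and the log2 fold change was 1.47 ± 0.555 (limma adjusted p = 0.256).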

How the data were processed

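RNA of sorted HFSCs was sequenced in 12 libraries, 3 each of control, Eed iKO, anagen and telogen, grouped by the labels. The authors aligned reads to mouse transcripts (Gencode vM20) with Kallisto (0.42.5), compared groups with DESeq2, and deposited a signal per gene and library: the read count over the size factor that DESeq2 gave the library. The deposited mean, log2 fold change, standard error, score (test statistic), p-value and adjusted p-value columns hold comparisons of the authors and were not used.

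Whole reads were recovered from the table of control and Eed iKO cells, where 100% of the values above 0 came out as whole reads, within 0.1 read, after division by the step of the library. For the hair cycle libraries 19.0% to 32.5% did, so no count test was run there. The tables were fitted apart with limma (3.58.1, R 4.3.3) with an intensity trend on log2(value + 1) after filterByExpr (minimum count 10). P-values were adjusted by the Benjamini-Hochberg method over all genes tested, and edgeR (4.0.16) and DESeq2 (1.42.0) were run on recovered reads as alternatives. The fits were tested on simulated data. Coordinates, transcript lengths and overlaps came from GENCODE vM21 (GRCm38), which matched 17879 of 17885 and 21915 of 21915 gene identifiers, and promoter sequences from RefSeq (GRCm38.p6).

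The genes and lists were chosen with earlier results of these data known. All 10 growth regulators are named. Of each other list the genes called by limma (at most 6 by p in each comparison) are named, or else at most 2 past the thresholds of the study. Neighbours on distal chromosome 7, markers, and values of Irs1, Igfbp4, Igfbp5 and Uhrf1 in Eed iKO cells were added after values were seen. The thresholds of the study are those of its methods, read as unadjusted p; a legend gives an adjusted p and an absolute fold change instead. No library was identical to another. Strand of the reads and TPM were not used here.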

Additional observations from a re-analysis of the deposited data

How the results depend on the processing

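The count of growth regulators called in Eed iKO against control was 0 by limma and stayed 0 when any library was left out, and it was 1 by DESeq2 and 1 with the thresholds of the study. Among the other imprinted genes the count was likewise 0, and 1 by either of these. Over all genes limma called 4, which became 424 with the replicate block, 2 without the intensity trend, 673 by DESeq2 and 263 with the thresholds of the study, and 1 to 203 when single libraries were left out, the 203 being without Eed iKO 3. In anagen against telogen the count of growth regulators was 0, became 1 with the replicate block (Cdkn1c) and 1 with the thresholds of the study, and ranged from 0 to 3 without single libraries. Among other imprinted genes it was 2, became 1 with a pseudocount of 0.1 and 1 without the filter, and ranged from 0 to 3. Over all genes it was 1556, became 468 without the filter, 842 without the intensity trend and 686 with the thresholds of the study, and ranged from 597 to 1529. The cause of these changes was not tested.

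When single libraries were left out, the log2 fold change in Eed iKO against control ranged from -0.18 to 0.37 for Cdkn1c, from -0.24 to 0.66 for Mest and from -0.17 to 0.10 for Eed, which was also 0.0049 by edgeR and 0.0025 by DESeq2. In anagen against telogen it ranged from -0.39 to 0.34 for Igf2r and from -0.012 to 0.49 for Mest. For Igf2 in Eed iKO against control it ranged from 1.79 to 3.28, and adjusted p ranged from 0.0396 to 0.562 over its alternatives.

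After the group means were removed, libraries with the same number correlated at 0.039, 0.068 and 0.193 in control and Eed iKO. In telogen and anagen they correlated at -0.035, -0.071 and -0.029. Whether the numbers pair the libraries of either table cannot be told from these values, with 3 libraries in each group. With the replicate block, Cdkn1c in anagen against telogen (adjusted p = 0.0230) and Irs1 and Igfbp5 in Eed iKO against control (adjusted p = 0.0203 and 0.0025) were called. In the first table control 2 and 3 correlated best with Eed iKO 2 and 3, but control 1 did not correlate best with Eed iKO 1. In the second no telogen library correlated best with the anagen library of its own number. edgeR and DESeq2 were not run on the hair cycle table, whose reads could not be recovered. Kcnq1 in both tables and Phlda2 and Ascl2 in the hair cycle table were too low to pass the filter.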
